A study of Mus musculus with 11 samples.

Results

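Basement membranes are thin sheets of extracellular matrix on which epithelia, endothelia and the first cell layers of the embryo rest. The genes described here encode their core: 3 chains of laminin-111 (Lama1, Lamb1 and Lamc1), 2 chains of collagen IV (Col4a1 and Col4a2), the nidogens (Nid1 and Nid2), perlecan (Hspg2) and Sparc. They were chosen by name, as the coding RefSeq rows whose NM identifier maps to these 9 symbols. All 9 had 1 row each in both deposited tables, out of 20599 coding features in the table of the Dcr libraries and 17289 in that of the cMyc libraries.

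The libraries are poly(A)-selected, directional RNA libraries from mouse embryonic stem cells (ESCs, cells that keep the potency of the early embryo) of strain 129S4/SvJae, kept without feeder cells on gelatin. The 5 Dcr libraries, which are paired-end, are 2 of wild-type cells (Dcr WT libraries 1 and 2) and 1 each of 3 knockout lines (Dcr KO lines 1, 3 and 4) labelled as knockouts of Dicer, the enzyme that cuts mature microRNAs out of their precursors. The 2 cMyc libraries, which are single-end, are 1 of flox/flox cells (cMyc flox) and 1 of the knockout (cMyc KO). For how the lines were made the labels point to earlier work. They do not say whether each line is 1 clone or whether the Dcr WT libraries came from separate cultures, so p-values measure the spread between these libraries, which may in part be technical. Dicer1 fell to 0.447 times its Dcr WT level (log2 fold change −1.17 ± 0.15, SE; limma adjusted p = 0.000556), with 8553, 9793 and 7743 in the 3 lines against 20132 and 18792. This value is over the whole gene, so it cannot show whether a deleted part is absent. Myc stood at 470 normalised reads in cMyc flox and 10.9 in cMyc KO. It fell in Dcr KO as well, from 10984 and 7478 to 1253, 1054 and 443 (−3.44, limma adjusted p = 0.000289), so low Myc was common to both knockouts. Recovered reads came to 101815723 in Dcr WT library 1 and to between 206721717 and 278006158 in the other Dcr libraries. They came to 24660365 and 31633011 in the cMyc libraries. Of 5 ESC markers, 0 passed an adjusted p under 0.05 in Dcr KO by limma, edgeR or DESeq2. In limma, 20.5% of coding features were higher and 22.7% lower. At an unadjusted p under 0.05, 1 marker was higher, Nanog (0.48, limma adjusted p = 0.0958), and 0 were lower. Nanog stood at 147795 and 93760 in Dcr WT and at 171597, 144947 and 177676 in Dcr KO. Pou5f1 stood at 214178 to 220556 in Dcr WT and 216556 to 284597 in Dcr KO. With so few libraries, not passing does not show that a marker was unchanged.

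Laminin is a cross-shaped trimer of an alpha, a beta and a gamma chain that is assembled inside the cell, where an alpha chain is the part that lets the trimer be secreted. Outside the cell, laminin binds integrins and dystroglycan and forms a lattice. Collagen IV, in its common form a trimer of alpha-1 and alpha-2 chains, forms another network, and nidogens and perlecan link the networks. In the mouse blastocyst the primitive endoderm and its parietal derivative are the best known makers of these proteins, and the laminin they lay down borders the epiblast, from which ESCs derive.

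Col4a1 and Col4a2 lie head to head on opposite strands of chromosome 8, and in the RefSeq annotation of GRCm38.p6 their gene spans overlap by 85 bases. Their promoter windows in RefSeq (250 bases before to 50 after the annotated start, 5′ to 3′ on each gene's own strand) are shown because the 2 genes share them and are described together below. Capitals mark the stretch of 78 bases, chr8:11312777-11312854, that the windows have in common, read from opposite strands.
Col4a1 (minus strand, chr8:11312777-11313076): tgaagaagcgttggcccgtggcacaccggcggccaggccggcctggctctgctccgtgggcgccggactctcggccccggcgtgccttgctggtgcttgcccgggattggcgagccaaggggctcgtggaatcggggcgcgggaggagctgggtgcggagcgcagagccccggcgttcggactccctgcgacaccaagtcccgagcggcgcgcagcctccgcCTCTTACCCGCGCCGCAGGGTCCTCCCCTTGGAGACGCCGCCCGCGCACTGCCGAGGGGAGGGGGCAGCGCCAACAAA
Col4a2 (plus strand, chr8:11312555-11312854): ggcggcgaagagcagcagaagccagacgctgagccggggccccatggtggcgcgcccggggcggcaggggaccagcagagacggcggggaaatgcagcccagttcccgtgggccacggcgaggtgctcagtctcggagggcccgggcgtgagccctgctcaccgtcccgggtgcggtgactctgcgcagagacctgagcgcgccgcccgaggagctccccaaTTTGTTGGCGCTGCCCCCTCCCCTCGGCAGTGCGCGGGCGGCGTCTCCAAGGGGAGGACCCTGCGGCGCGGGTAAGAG
The starts on which the windows are built, 11312826 for Col4a1 and 11312805 for Col4a2, are 21 bases apart. The gene span of Col4a1 reaches further, to 11312889, and the overlap of 85 bases is that of the spans. With the starts of the windows, both genes cover 22 bases. The labels name a directional protocol but do not state that strand was used in counting. Reads from the bases that both genes cover may therefore have been counted for either gene.

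RefSeq windows of the same kind were found for 6 of the 9 genes. Their GC content was 55.3% for Sparc, 63.7% for Lamb1, 64.7% for Nid1, 70.3% for Hspg2, 73.7% for Col4a2 and 74.0% for Col4a1, against a median of 52.7% over 32851 windows. Both strands were searched for 4 short motifs, none of which contains another, though their matches may overlap by a few bases. The GC box, spelled GGGCGG, was present in 35.7% of all windows. It matched 5 times in the Hspg2 window, 3 times in that of Col4a2, 2 times in that of Lamb1, 1 time each in those of Nid1 and Col4a1, and 0 times in that of Sparc. The box that nuclear factor Y binds, spelled CCAAT, was present in 37.4% of all windows. It matched 1 time each in the windows of Col4a1, Col4a2, Lamb1 and Nid1. The E-box that Myc and Max bind, spelled CACGTG, was present in 7.15% of all windows and in 0 of these 6. The motif that GATA factors bind, spelled AGATAA, was present in 11.2% of all windows and also in 0 of these 6. The Nid1 and Lamb1 windows are shown because both hold the GC box and the nuclear factor Y box while Nid1 rose in Dcr KO and Lamb1 did not pass. Col4a1 and Col4a2 hold both boxes too and rose, and Sparc holds neither and rose as well. The Hspg2 window is shown because it holds the most GC boxes. The part of these 2 motifs in the changes was not tested. Capitals mark matches to these 2 motifs on either strand.
Nid1 (plus strand, chr13:13437352-13437651): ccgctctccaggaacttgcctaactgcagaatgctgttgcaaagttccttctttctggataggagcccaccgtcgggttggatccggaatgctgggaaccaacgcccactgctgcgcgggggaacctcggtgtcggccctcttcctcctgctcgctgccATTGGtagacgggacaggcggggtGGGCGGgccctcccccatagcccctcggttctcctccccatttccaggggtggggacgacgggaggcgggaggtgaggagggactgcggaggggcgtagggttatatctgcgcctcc
Lamb1 (plus strand, chr12:31265043-31265342): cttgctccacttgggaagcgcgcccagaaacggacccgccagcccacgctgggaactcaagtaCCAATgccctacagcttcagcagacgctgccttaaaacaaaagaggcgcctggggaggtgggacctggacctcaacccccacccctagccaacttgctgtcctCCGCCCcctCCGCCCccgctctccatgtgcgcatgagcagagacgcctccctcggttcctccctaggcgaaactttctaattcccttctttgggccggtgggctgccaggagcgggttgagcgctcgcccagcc
Hspg2 (plus strand, chr4:137468553-137468852): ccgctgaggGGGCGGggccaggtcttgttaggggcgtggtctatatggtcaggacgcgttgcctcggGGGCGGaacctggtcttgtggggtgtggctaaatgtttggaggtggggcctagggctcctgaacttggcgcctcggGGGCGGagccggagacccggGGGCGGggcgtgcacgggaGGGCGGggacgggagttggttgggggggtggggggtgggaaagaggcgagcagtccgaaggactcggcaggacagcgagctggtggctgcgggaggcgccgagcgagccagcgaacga
These matches describe the letters of the windows only.

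In Dcr KO, 6 of the 9 genes were higher and 0 were lower (limma, adjusted p under 0.05), where 20.5% of 17140 coding features tested were higher and 22.7% lower. The same 6 were the ones with every Dcr KO line above both Dcr WT libraries, which held for 30.8% of coding features (every line below both for 35.4%). These shares are over coding features of all levels. By mean value the 9 genes lay above 74.5% (Col4a2) to 99.9% (Hspg2) of them, and shares among features of like level were not computed. An unadjusted p under 0.05 gave 6 and 0 too, as did edgeR and DESeq2 on the recovered reads. The median log2 fold change of the 9 genes was 0.92, beside −0.06 over coding features. The 9 genes together took 0.315% and 0.345% of the coding reads in Dcr WT and 0.553%, 0.627% and 0.607% in the 3 lines, or 0.330% ± 0.021 (SD, n = 2) against 0.596% ± 0.038 (SD, n = 3). Values below are normalised read counts, which depend on transcript length, so levels are compared between libraries and not between genes. In bulk RNA, more cells that express a gene and more RNA per cell cannot be told apart.

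**Figure D1:**
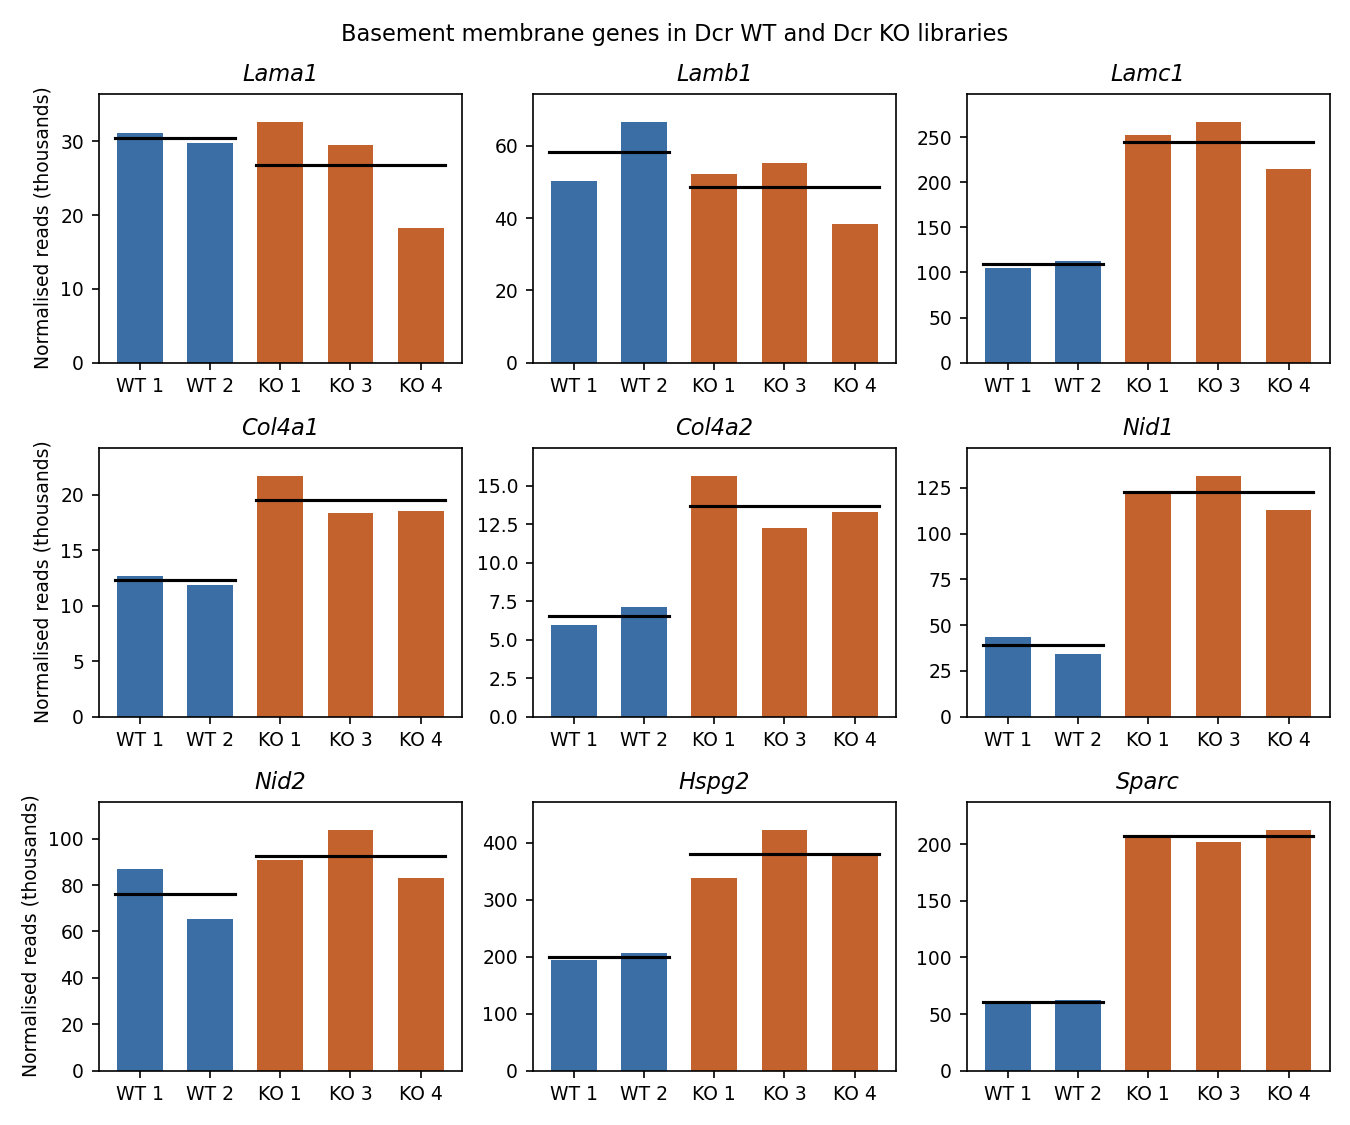
Normalised read counts, in units of 1000 on axes that start at 0, of the 9 genes in Dcr WT libraries 1 and 2 (blue) and Dcr KO lines 1, 3 and 4 (orange). Each bar is 1 library and each black line a group mean. In 6 panels all orange bars stand above both blue bars, while those of Lama1, Lamb1 and Nid2 overlap.

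The 3 laminin chains did not move together. Lamc1, the gamma chain that most laminins share, stood at 105242 and 113162 in Dcr WT and at 252607, 266436 and 214946 in lines 1, 3 and 4 of Dcr KO. Every line was thus far above both wild-type libraries, and Lamc1 rose 2.24-fold (log2 fold change 1.16 ± 0.15, SE; limma adjusted p = 0.00057). Lamb1, the beta chain, stood at 50279 and 66536 in Dcr WT and at 52368, 55305 and 38303 in Dcr KO. The groups overlapped, with line 4 below all others, and Lamb1 did not pass (−0.27 ± 0.19, SE; limma adjusted p = 0.318). Lama1, the alpha chain, stood at 31146 and 29792 in Dcr WT and at 32563, 29543 and 18198 in Dcr KO. It too had its lowest value in line 4, at 0.597 times the Dcr WT mean, and did not pass (−0.23 ± 0.23, SE; limma adjusted p = 0.466). Without line 4 its log2 fold change was 0.026 (limma adjusted p = 0.910, and 0.229 to 0.910 over 17 alternatives).

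Set against Lamc1 within each library, where the scaling between libraries plays no part, both other chains took a smaller place in Dcr KO. The ratio of Lama1 to Lamc1 reads was 0.296 and 0.263 in Dcr WT and 0.129, 0.111 and 0.0847 in Dcr KO. The ratio of Lamb1 to Lamc1 reads was 0.478 and 0.588 in Dcr WT and 0.207, 0.208 and 0.178 in Dcr KO. In neither ratio did the groups overlap, and the differences came to −1.39 and −1.43 on the log2 scale, or a ratio 2.62 and 2.69 times lower. These ratios are of reads, not of molecules, since transcript lengths were not used here. With 2 libraries against 3, an exact two-sided permutation test cannot go below p = 0.1, the value it gave for each of 4 ratios compared (0.1 also after Benjamini-Hochberg adjustment).

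**Figure D2:**
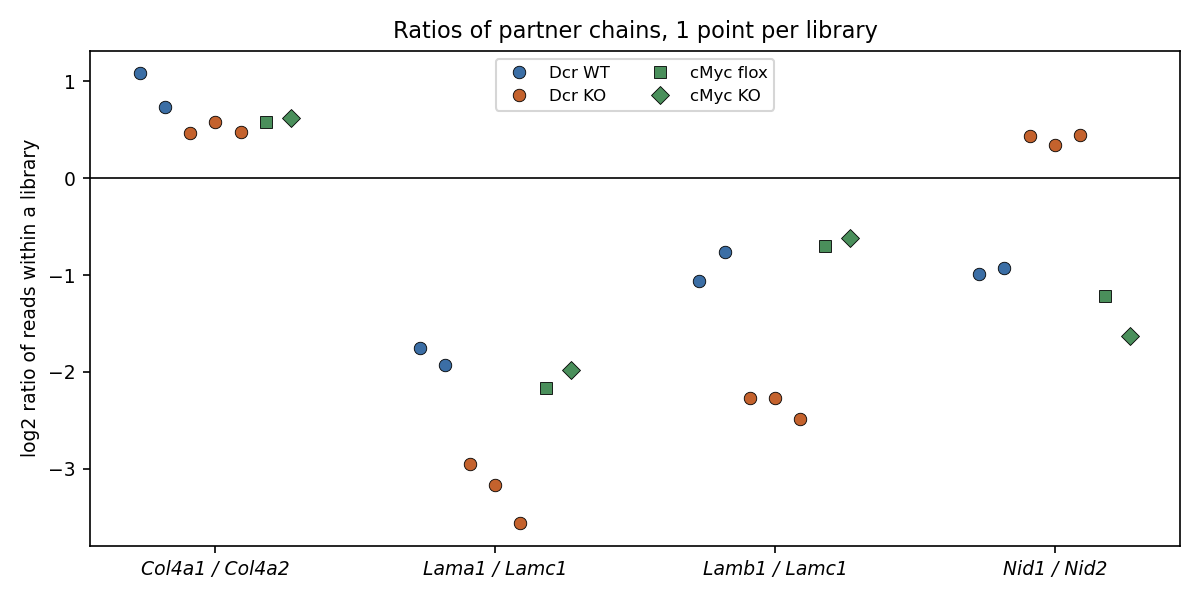
Log2 ratio of reads between 2 genes of the same library, 1 point per library, for 4 pairs of genes in the 5 Dcr libraries (circles), cMyc flox (square) and cMyc KO (diamond). Dcr KO lies apart from Dcr WT in all 4 pairs, by −0.40 for Col4a1 / Col4a2 and by 1.37 for Nid1 / Nid2.

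Both collagen IV chains rose. Col4a1, which encodes the alpha-1 chain, stood at 12688 and 11901 in Dcr WT and at 21647, 18319 and 18550 in Dcr KO. Each line lay above both wild-type libraries, for a 1.59-fold rise (log2 fold change 0.66 ± 0.14, SE; limma adjusted p = 0.0071). In limma without a mean-variance trend Col4a1 did not pass (adjusted p = 0.083, the highest of 17 alternatives, which ran from 0.000366). Col4a2, which encodes the alpha-2 chain, stood at 5983 and 7123 in Dcr WT and at 15621, 12261 and 13279 in Dcr KO. It rose 2.09-fold (1.06 ± 0.16, SE; limma adjusted p = 0.00125), again with no overlap. Line 1 was the highest of the lines for both genes. The ratio of Col4a1 to Col4a2 reads was 2.12 and 1.67 in Dcr WT and 1.39, 1.49 and 1.40 in Dcr KO (difference −0.40 on the log2 scale; exact permutation p = 0.1). The groups did not overlap in this ratio, but the difference shrank to −0.23 when Dcr WT library 1 was left out and grew to −0.57 when library 2 was.

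Of the linkers, Nid1 and Nid2 differed. Nid1 encodes nidogen-1, which binds the laminin gamma-1 chain and collagen IV. It stood at 43649 and 34454 in Dcr WT and at 123411, 131300 and 113089 in Dcr KO. The lowest line was 2.59 times the higher wild-type library, and Nid1 rose 3.14-fold (log2 fold change 1.66 ± 0.15, SE; limma adjusted p = 0.000107). Nid2, which encodes the related nidogen-2, stood at 86827 and 65366 in Dcr WT and at 90931, 103592 and 82958 in Dcr KO. Line 4 lay below Dcr WT library 1, and Nid2 did not pass (0.29 ± 0.17, SE; limma adjusted p = 0.213). It did pass without Dcr WT library 1, at 0.49 (limma adjusted p = 0.0300, and up to 0.728 over 17 alternatives). The ratio of Nid1 to Nid2 reads went from 0.503 and 0.527 in Dcr WT to 1.36, 1.27 and 1.36 in Dcr KO, so that the gene with fewer reads in wild-type cells had more in each line (difference 1.37 on the log2 scale; exact permutation p = 0.1).

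Hspg2, which encodes the proteoglycan perlecan, stood at 193978 and 205529 in Dcr WT and at 338031, 421432 and 378289 in Dcr KO. All 3 lines lay well above the wild-type libraries, and Hspg2 rose 1.90-fold (log2 fold change 0.92 ± 0.15, SE; limma adjusted p = 0.00193). With no filter on low values it did not pass (limma adjusted p = 0.0555, the highest of 17 alternatives, which ran from 6.00e-07). Sparc, whose product binds collagen IV and is abundant in parietal endoderm, stood at 59198 and 62248 in Dcr WT and at 206149, 202097 and 212098 in Dcr KO. Its 3 lines lay within 1.05-fold of each other. Sparc had the highest fold change of the 9 genes, at 3.41-fold (1.77 ± 0.13, SE; limma adjusted p = 4.10e-05), above 94.7% of coding features.

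The lines were alike for most of these genes. In 7 of the 9 the highest Dcr KO line was less than 1.3 times the lowest. The exceptions were Lama1, with a span of 1.79-fold, and Lamb1, with 1.44-fold. Line 4 was the lowest line for 5 genes, namely Lama1, Lamb1, Lamc1, Nid1 and Nid2.

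In the cMyc pair, where Myc was nearly absent from the knockout, 0 of the 9 genes reached a 1.5-fold difference in either direction, while 8.34% of 14360 coding features with at least 10 reads were at least 1.5-fold higher and 5.72% lower (2.87% and 1.29% at 2-fold). There is 1 library per genotype, so these differences have no replicate check, and the intervals given are exact binomial (Clopper-Pearson, 95%) and cover counting error only. Sparc stood at 11488 in cMyc flox and 14362 in cMyc KO, a ratio of 1.25 (1.22 to 1.28). Nid2 showed the highest ratio, from 4599 to 6271 or 1.36 (1.31 to 1.42), and it was one of the genes that did not pass in Dcr KO. The collagen IV genes had the lowest: Col4a1 stood at 1960 and 1661, a ratio of 0.847 (0.794 to 0.904), and Col4a2 at 1306 and 1082, a ratio of 0.829 (0.765 to 0.898).

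The laminin chains were close to level in that pair. Lamc1 stood at 8329 and 8502, a ratio of 1.02 (0.991 to 1.05). Lamb1 stood at 5117 and 5545, a ratio of 1.08 (1.04 to 1.13), and Lama1 at 1860 and 2150, a ratio of 1.16 (1.09 to 1.23). Nid1 stood at 1977 and 2026 (ratio 1.02, 0.963 to 1.09) and Hspg2 at 20620 and 21054 (ratio 1.02, 1.00 to 1.04). Of these 5 genes, 4 changed side when the libraries were scaled by total reads: the log2 ratio was then −0.025 for Lamb1 and −0.11 for each of Lamc1, Nid1 and Hspg2. That scaling moved the median log2 ratio over coding features from 0.11 to −0.031. The 9 genes together took 0.354% of coding reads in cMyc flox and 0.359% in cMyc KO, both near the share in Dcr WT.

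**Figure D3:**
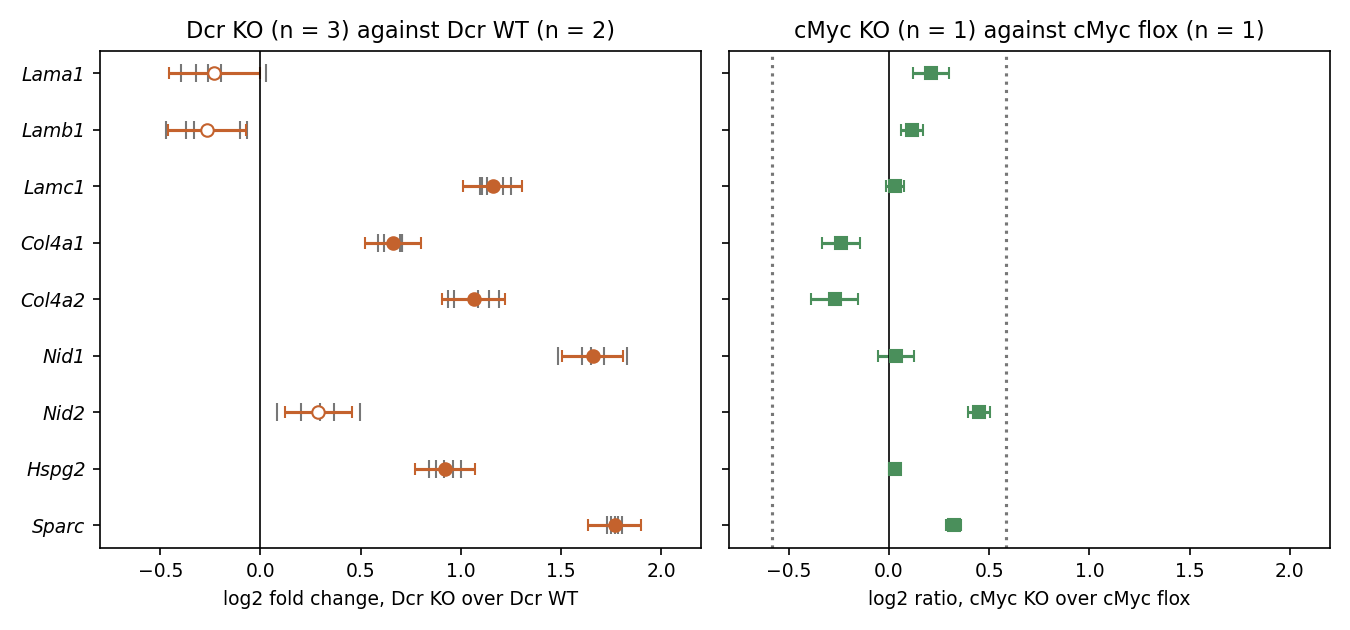
Log2 differences of the 9 genes. At left, Dcr KO over Dcr WT with its SE (filled circles passed the limma test, open circles did not) and, as grey ticks, the values without each library in turn. At right, cMyc KO over cMyc flox with the 95% counting interval and dotted lines at 1.5-fold. Sparc is farthest right on the left panel, at 1.77, and all 9 squares lie between the dotted lines.

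A further 62 genes of the basement membrane, its receptors, its synthesis and its turnover were taken from 6 lists. Of the 61 found and tested in the Dcr table, 21 rose, 6 fell and 34 did not pass, with a median log2 fold change of 0.17, where 20.5% of coding features were higher and 22.7% lower. Among the other laminin chains, 3 of 8 rose and 2 fell (median 0.61), and DESeq2 called 4 higher. Lamb2, the beta chain that can stand in the place of Lamb1, rose from 11662 and 10972 to 24404, 27098 and 28029 (1.23 ± 0.14, SE; limma adjusted p = 0.000266), while Lamb1 itself did not pass. Lama5 rose as well (0.58, limma adjusted p = 0.0312), but its call was lost when any 1 line or Dcr WT library 1 was left out, and with scaling by total counts (adjusted p up to 0.158 over 17 alternatives). Lamc3 fell from 115 and 80.3 to 23.1, 6.87 and 10.7, and Lama3, an alpha chain of epithelial laminins, fell from 5993 and 8979 to 4766, 4520 and 4096 (−0.72, limma adjusted p = 0.0179). The call of Lama3 was lost without any 1 line or without library 2 (adjusted p up to 0.119 over 17 alternatives). The 4 other collagen IV chains had few reads, with a summed value between 86.5 and 428 per library, and 0 rose or fell in limma (at an unadjusted p under 0.05, 0 higher and 1 lower, and 1 lower in edgeR and in DESeq2).

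Among 17 other basement membrane components 7 rose and 0 fell in limma (median 0.42), where 20.5% of coding features were higher and 22.7% lower. The unadjusted p was under 0.05 for 8 and 2, while edgeR found 7 and 1, as did DESeq2. Fras1, which encodes an extracellular matrix protein of embryonic epithelia, rose from 851 and 1489 to 5107, 5517 and 3528 (2.04 ± 0.27, SE; limma adjusted p = 0.000621). Ntn4, which encodes netrin-4, a protein that binds laminin gamma chains, rose from 125 and 100.4 to 370.0, 301.7 and 331.4 (1.57). Of 10 receptors 4 rose and 0 fell in limma (median 0.19), with 4 higher and 1 lower at an unadjusted p under 0.05 and 4 and 0 in both edgeR and DESeq2. Itgb1, the beta-1 integrin subunit through which most laminin receptors act, rose 1.95-fold from 34373 and 39760 to 78584, 72623 and 65386. Itgb4, the partner of the alpha-6 subunit in hemidesmosomes, rose 3.85-fold from 5357 and 4898 to 18574, 18642 and 22042. Both groups of values were clear of each other, and the limma adjusted p was 0.00131 for Itgb1 and 4.18e-05 for Itgb4.

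Among 14 genes of collagen synthesis and crosslinking found in the table, 5 rose and 2 fell in limma (median 0.17). Over coding features, 20.5% were higher and 22.7% lower. The unadjusted p was under 0.05 for 5 higher and 3 lower, while edgeR and DESeq2 each called 5 and 2. P4ha3, a prolyl 4-hydroxylase subunit, rose from 36.2 and 43.8 to 203, 243 and 139 (2.23, limma adjusted p = 0.00152). It had only 18 and 48 reads in Dcr WT. The other prolyl 4-hydroxylase genes of the list, P4ha1 (0.21), P4ha2 (−0.55) and P4hb (0.12), had higher values and did not pass. Pxdn encodes peroxidasin, which forms the sulfilimine crosslinks of collagen IV, and rose from 11910 and 14274 to 26125, 28087 and 25721 (1.03, limma adjusted p = 0.000804). The lysyl hydroxylase gene Plod1 (−0.73) and the prolyl 3-hydroxylase gene P3h2 (−1.07) fell. The call of P3h2 was lost without line 3 or line 4 (limma adjusted p = 0.0826 and 0.075), with no filter and in limma without trend. That of Plod1 was lost in limma without trend (adjusted p = 0.0672). Among 8 matrix proteases and inhibitors, 2 rose and 2 fell in limma (median −0.50), which is close to the shares over coding features. The unadjusted p was under 0.05 for 2 higher and 4 lower, while edgeR and DESeq2 each called 2 and 2. The genes below are given one by one and not as a change of the list. Mmp14, a membrane-bound metalloprotease, rose from 10159 and 8497 to 23207, 23708 and 24195 (1.35), and the heparanase gene Hpse, whose product cuts heparan sulfate chains such as those of perlecan, rose from 98.6 and 103 to 219, 201 and 307 (1.23). Mmp2, a gelatinase that also cuts collagen IV, fell from 7240 and 8011 to 3804, 3608 and 3360 (−1.09). Timp2, an inhibitor of both metalloproteases, fell from 1768 and 1498 to 296, 236 and 267 (−2.61, limma adjusted p = 5.19e-05).

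**Figure D4:**
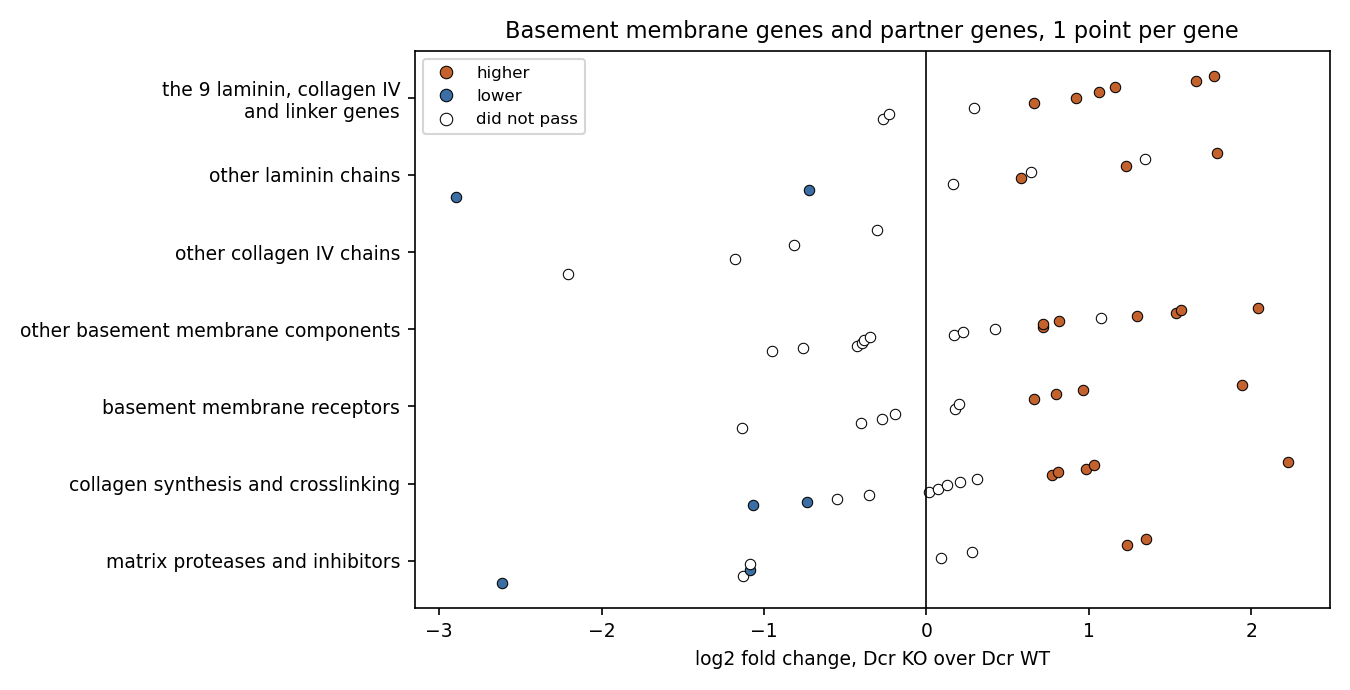
Log2 fold change in Dcr KO over Dcr WT of each tested gene, by list. Orange points were higher and blue points lower (limma, adjusted p under 0.05), and open points did not pass. Orange points lie in 6 of the 7 lists, from Lama5 at 0.58 to P4ha3 at 2.23, and the row of other collagen IV chains has open points only.

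Of the same lists, 7 of the 55 genes with at least 10 reads were at least 1.5-fold higher in cMyc KO and 1 was lower, beside 8.34% and 5.72% of coding features and with no replicate check. Some of them had few reads in cMyc flox and cMyc KO: Smoc2, the 1 that was lower, had 6 and 4 (interval 0.119 to 2.42). Among the higher, Ntn4 had 10 and 26 reads and Frem1 8 and 22. The 7 that were higher include Tinagl1 (310 and 531, ratio 1.71, 1.49 to 1.98) and Fbln1 (891 and 1366, ratio 1.53, 1.41 to 1.67), both basement membrane components. Tinagl1 and Fbln1 were picked after their values were seen, as those with over 100 reads in each library. Itgb1 had a ratio of 0.806 (0.769 to 0.845) and Itgb4 one of 1.23 (1.07 to 1.43). Of the 7 fibroblast markers with at least 10 reads, 4 were at least 1.5-fold higher in cMyc KO and 0 lower. Of these 4, Dcn had only 2 and 8 reads (interval 0.686 to 33.2) and Col3a1 10 and 32. Thy1 had a ratio of 0.830 (0.653 to 1.05). The summed value of the list was 1895 in cMyc flox and 3288 in cMyc KO. Most of that sum was Col1a1 (1220 and 2313, ratio 1.90, 1.77 to 2.03) and Col1a2 (442 and 727, ratio 1.65, 1.46 to 1.86), while Lum was at 0 in cMyc flox with 1 read in cMyc KO. The part of these cells in the cMyc values was not tested.

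Markers of other cells that the cultures could hold were read in the same libraries. The counts below stand beside 20.5% of coding features higher and 22.7% lower in limma. In lists this short, counts near those shares are not read as a change of the list. Of 6 primitive endoderm markers, 0 rose and 2 fell in limma (0 and 2 also at an unadjusted p under 0.05, in edgeR and in DESeq2), and their summed value was 2257 to 3957 in Dcr WT and 2344 to 2702 in Dcr KO. Gata6 stood at 406 and 143 in Dcr WT and 29.3, 81.7 and 85.7 in Dcr KO (log2 fold change −2.01, limma adjusted p = 0.0234). Its call was lost without line 1, line 4 or Dcr WT library 1, and its log2 fold change ran from −2.76 (Dcr WT library 2 left out) to −1.26 (library 1 left out). Sox7, the other that fell, went from 825 and 538 to 277, 280 and 124 (−1.64, limma adjusted p = 0.00983). Its log2 fold change ran from −1.95 to −1.25 over the libraries left out. The call of Sox7 was lost with no filter and in limma without trend. Gata4 stood at 1823 and 1250 in Dcr WT and 1708, 1984 and 1811 in Dcr KO, and Sox17 at 169 and 73.9 against 114, 58.8 and 26.8, and neither of these 2 passed. Of 6 parietal endoderm markers 1, Plat, rose and 1, Pth1r, fell in limma and edgeR, while DESeq2 called 2 higher and 1 lower, the same counts as an unadjusted p under 0.05. Stra6, the other marker with every line above both wild-type libraries, stood at 378 and 368 in Dcr WT and 641, 604 and 445 in Dcr KO (0.58, limma adjusted p = 0.0813). Plat stood at 328 and 415 against 799, 720 and 658 (0.97). Pth1r changed the most of this list, from 994 and 442 to 84.3, 90.9 and 84.9 (−2.92, limma adjusted p = 0.000377). The list had a sum of 2893 to 3836 in Dcr WT and 3102 to 3824 in Dcr KO. Of 7 visceral endoderm markers, 5 of them tested, 1 rose and 3 fell. Hnf4a fell from 163 and 129 to 14.2, 6.11 and 9.18 (−3.82). Amn fell from 960 and 1274 to 256, 257 and 252 (−2.11, limma adjusted p = 0.000168). Apob was the one that rose, from 316 and 484 to 3387, 2883 and 1409 (2.61, limma adjusted p = 0.000718), and it made up most of the sum in Dcr KO. Cubn was among those that fell, from 2573 and 416 to 299.0, 317 and 181 (limma adjusted p = 0.0340), but its call was lost without any 1 line or without Dcr WT library 1, where its log2 fold change was −0.69. The sum of the list was 2374 to 4088 in Dcr WT and 1931 to 3993 in Dcr KO, with Afp at 0 in all 5 libraries and Ttr at 0 in all but Dcr WT library 1. Of 9 fibroblast markers, 8 of them tested, 1 rose and 5 fell, and the sum was 6470 to 11452 in Dcr WT and 1273 to 1665 in Dcr KO. The sums of the 3 endoderm lists overlapped between genotypes and that of fibroblast markers was lower in every Dcr KO line. Such sums add reads not scaled for transcript length and can rest mostly on 1 gene, such as Apob, so they do not measure cell content. Of 5 endothelial markers, 3 rose (Kdr, Pecam1 and Tek) and 0 fell in limma, edgeR and DESeq2 (3 and 0 at an unadjusted p under 0.05). The sum of this list was 21767 to 21870 in Dcr WT and 62658 to 70416 in Dcr KO. Most of it was Pecam1, which ESCs also express, at 16750 and 14604 in Dcr WT and 50398, 41775 and 40588 in Dcr KO. Kdr stood at 364 and 235 in Dcr WT and at 4771, 9291 and 6632 in Dcr KO, a 23.0-fold rise (limma adjusted p = 2.57e-05). Tek stood at 4436 and 6993 against 15166, 16484 and 15388, a 2.74-fold rise. The other endothelial markers did not pass or were not tested: Emcn was at 0 in all Dcr KO lines and Cdh5 stood at 213 and 38.3 in Dcr WT and 81.6, 68.7 and 49.7 in Dcr KO. The part of these cell types in the result was not tested.

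The 5 genes outside these lists whose values over the 5 Dcr libraries lay nearest to the median profile of the 9 genes were Pik3ca, N4bp2, Brca1, Txndc15 and Bcr. Nearness was the smallest Euclidean distance of log2(value + 1) minus its Dcr WT mean, out of 10233 coding genes with a mean of at least 1000, and the distances ran from 0.0688 to 0.106. Their log2 fold changes in Dcr KO lay between 0.84 and 0.89, which follows from choosing them by these same values. Pik3ca, which encodes a catalytic subunit of phosphoinositide 3-kinase, stood at 6910 and 7109 in Dcr WT and at 11880, 13221 and 13589 in Dcr KO. In the cMyc pair the same 5 genes had log2 ratios from −0.51 for Pik3ca to 0.11 for Bcr.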

How the data were processed

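RNA libraries of 5 Dcr and 2 cMyc samples were analysed, and the 4 chromatin immunoprecipitation libraries were not analysed here. The authors deposited 1 table of normalised signal per feature for each set. The submitters' processing notes list TopHat, Bowtie, DESeq and mm9 without roles or versions. What counted the reads, over which gene models, is not stated there. Values were read counts divided by 1 factor per library: at least 99.9975% of values in each column were whole reads within 0.01 read, so reads were recovered. All 7 value columns named 1 sample each. The column name of Dcr WT library 1 ends in _1 and those of the other Dcr libraries in _2, which the labels do not explain. RefSeq identifiers were given symbols from the GRCm38.p6 annotation (19362 of 19683 coding rows in the Dcr table, 16246 of 16484 in the cMyc table). That annotation and the promoter windows come from another build than mm9 and were used for names and sequence only.

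The Dcr genotypes were compared by limma 3.58.1 (R 4.3.3, moderated variances with a mean trend) fitted to log2(value + 1). Features entered if 2 or more libraries reached a value of 1, which left 42358. P-values were adjusted by Benjamini-Hochberg over all of them, with 0.05 as the threshold. Fold changes in log2 are on the log2(value + 1) scale, and fold values are ratios of means. Alternatives were other scalings, pseudocounts, filters, edgeR 4.0.16, DESeq2 1.42.0 and leaving out each library. The cMyc tables have 1 library per group and no test. Levels per transcript length and microRNA seed matches, both planned, were not run because transcript lengths and 3′ UTRs were not used here. Partner genes were named by a rule, the 2 called genes of each list with the largest change in each direction, of which 1 is not reported here. Genes named beside them, where a count of 5 or fewer was spelled out, were chosen after their values were seen. The 9 genes and all lists were chosen with earlier results of these data known.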

Additional observations from a re-analysis of the deposited data

How the results depend on the processing

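The 9 genes were refitted under 17 alternatives, and 149 of 153 values kept their direction and their side of the threshold. The exceptions were Lama1 without Dcr KO line 4 (0.026 in place of −0.23, not called in either, and −0.39 to 0.026 over the libraries left out in turn), Col4a1 in limma without trend, Hspg2 with no filter and Nid2 without Dcr WT library 1. The number of the 9 that were higher was 5 in 2 alternatives and 6 or 7 in the others. Leaving out each library in turn gave 6 to 7 higher and 0 lower, and 0 genes past 1.5-fold in the cMyc pair held under each scaling, with 10 added to both values and at 2-fold.

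Of the partner genes, 21 were higher and 6 lower. Limma without trend called 12 higher and 3 lower, and the fit with no filter called 3 lower. Leaving out each library gave 16 to 24 higher and 4 to 11 lower, with 11 lower without Dcr WT library 1. Of the 21 that rose, 16 were called without any 1 library, and of the 6 that fell, 4. Over coding features, 3514 were higher and 3885 lower. Limma without trend called 1656 and 2081, and leaving out each library gave 2162 to 3810 higher, with 2333 without line 1 and 2162 without line 3, and 2504 to 4079 lower, with 2504 without line 3. Why these counts fell was not tested.

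No paired analysis was possible because the labels state no pairing. The numbers 1, 3 and 4 of Dcr KO name lines, while 1 and 2 of Dcr WT name replicates. Each of the 9 genes had at least 2974 reads in every Dcr library and 1194 in each cMyc library. The cMyc intervals cover counting error only, and 2 of 9 hold 1. Leaving out a wild-type library leaves 1, which limma assumes to vary like the others.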
